A study of Mus musculus with 16 samples.

Results

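miR-155 was followed across 8 populations of mouse myeloid and dendritic cells, from bone marrow progenitors to splenic dendritic cells (DC). It was taken by its name on the arrays, mmu-miR-155, and is 1 of the 604 microRNAs (miRNAs) that both array designs of the series carry. Each population was measured on 2 Agilent 1-colour miRNA arrays, 16 arrays in all, each with RNA from a pool of animals. Whether populations with the same replicate number came from the same animals is not known here. Replicate 1 of each population lay on design 1 and replicate 2 on design 2, so the replicate number, the array design and the slide are a single split.

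All animals were female C57Bl/6 mice aged 6 weeks, and the cells were sorted and not cultured. Of the marrow progenitors, which lacked lineage markers and carried CD135, MP cells (a name the labels do not spell out) carried CD117 and lacked CD115. MDP, the macrophage and dendritic cell progenitors, carried both, and CDP, the common dendritic cell progenitors, carried CD115 with little CD117. Each progenitor replicate pooled 15 mice. The Gr1+ monocytes (CD11b+ CD115+) and the plasmacytoid dendritic cells (PDC, gated on B220, intermediate CD11c, SiglecH and CD317) also came from marrow, in pools of 5 mice. The CD4+, CD8+ and CD4-CD8- DC came from spleen, in pools of 8 mice, as CD11c+ CD3- cells. CD8+ DC were in addition gated on CD86, a surface protein that activated DC carry, and no other population was. Tissue and pool size therefore cannot be told apart from cell type between the splenic DC and the marrow populations. Within the marrow, pool size cannot be told apart from cell type between the progenitors and the Gr1+ monocytes or PDC.

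miR-155 is cut from the transcript of a long noncoding host gene, Mir155hg, which macrophages and DC induce when Toll-like receptors or inflammatory cytokines are engaged. Like other miRNAs it guides Argonaute to messenger RNAs that pair with its seed, the bases near its 5′ end, and known targets include Socs1, Inpp5d and Spi1, which encode a brake on cytokine signalling, a phosphoinositide phosphatase and the myeloid factor PU.1. In DC it is known for its part in maturation and in the activation of T cells.

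The mature strand and its hairpin are shown because the array reports the mature strand alone. The array's mmu-miR-155 was matched to RefSeq's miR-155-5p, to which its probes are complementary. Both sequences are from RefSeq (build GRCm38.p6, chromosome 16, plus strand). In the mature strand (chr16:84714143-84714165) the capitals mark the seed, bases 2 to 8. In the hairpin (chr16:84714140-84714204, 65 bases) they mark the mature strand, bases 4 to 26. The annotation places Mir155 inside the long noncoding RNA gene Mir155hg.
miR-155-5p: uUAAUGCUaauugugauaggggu
mir-155 hairpin: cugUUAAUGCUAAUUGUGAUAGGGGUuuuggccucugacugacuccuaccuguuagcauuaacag

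Each array carries 20 spots for miR-155, 10 for each of 2 probes, whose sequences are the same on both designs. They are shown because they differ by a single base and set how low a level the array can read. The capitals mark the bases that pair with the seed.
18-base probe: acccctatcacaattAGC
17-base probe: acccctatcacaattAG
The 18-base probe pairs with bases 6 to 23 of the mature strand and so with 3 seed bases. The 17-base probe pairs with bases 7 to 23 and with 2 seed bases. The file headers place the probes on chromosome 16 of build mm9, at chr16:84714394-84714410 and chr16:84714395-84714410, intervals 1 base shorter than the probes themselves. Among the 1679 distinct names of mature mouse miRNAs in the RefSeq table, miR-155-5p was the 1 entry with the seed UAAUGCU, so no other miRNA of the table shares it.

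The 18-base probe read higher than the 17-base probe on all 16 arrays. On the 14 arrays where miR-155 was detected, the ratio of the longer to the shorter probe lay between 2.89 and 3.98, with a median of 3.46. What sets the ratio was not tested, and it is not read here as a difference between the cells. In CD4-CD8- DC replicate 1 the longer probe read 472 ± 21.1 intensity units (SD over 10 spots) and the shorter 140 ± 13.1. In CDP replicate 2 they read 45.0 ± 4.35 and 11.3 ± 2.83. All 10 spots of the longer probe were well above background on each of the 14 arrays. The shorter probe fell short at the dim end, with 5 of 10 spots well above background in MDP replicate 2, 2 in PDC replicate 1, 1 in CDP replicate 1 and 0 in CDP replicate 2. In Gr1+ monocytes 0 spots of either probe were well above background. No spot was saturated (0 of 320), and 7 were left out as outliers that Feature Extraction had marked.

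**Figure D1:**
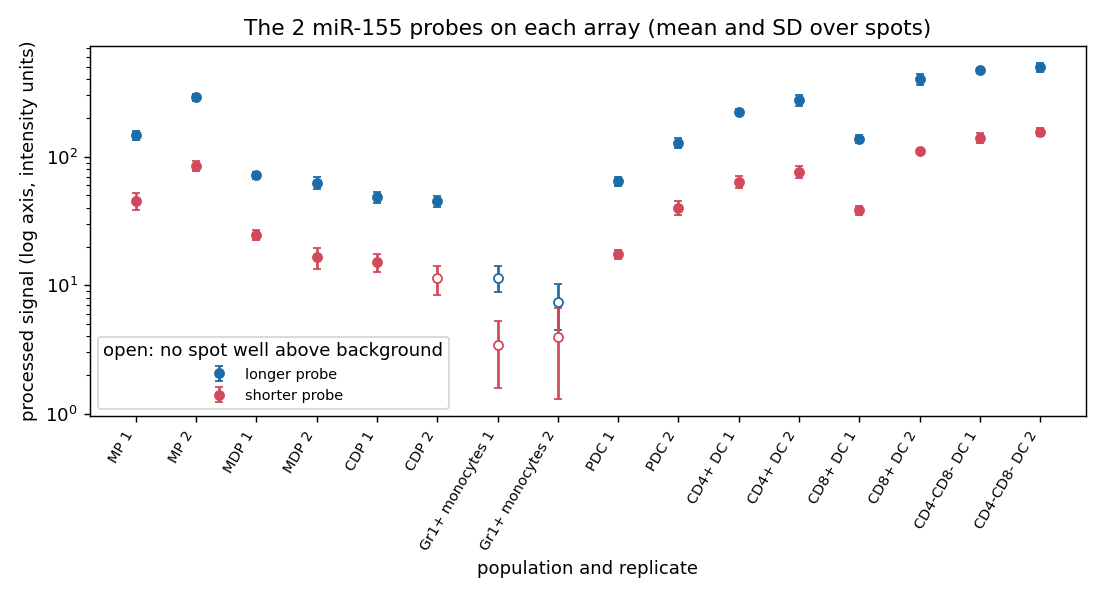
Processed signal of the 18-base probe (blue) and the 17-base probe (red) of miR-155 on each of the 16 arrays, on a log axis in intensity units, as mean and SD over the spots kept, 8 to 10 per probe; open points had 0 spots well above background. The probes move together, from 472 and 140 units in CD4-CD8- DC replicate 1 down to 11.4 and 3.41 in Gr1+ monocytes replicate 1.

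The levels below are log2 values of the mean processed signal of both probes relative to a reference of the same array, the 75th percentile among 88 miRNAs that every array detected. On this scale 0 is that reference and a step of 1 is a doubling. Detected means that, for at least 1 probe, a share of 0.5 or more of its spots was well above background. Anything dimmer than a floor was set to the floor, -5.32 on design 1 and -5.78 on design 2. The scaling factor ran from 333 to 876 intensity units and the number of miRNAs detected from 116 to 174 per array.

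Among the progenitors, MP had the highest miR-155. Its arrays read -2.18 and -1.51 (replicates 1 and 2 throughout), from unscaled signals of 95.8 and 187. MDP lay lower, at -3.24 and -3.07, from signals of 48.1 and 39.6. CDP, the stage after MDP on the way to DC, lay lower again, at -4.00 and -4.25, from signals of 31.7 and 28.1. The arrays of the 3 progenitors did not overlap, and the order MP, MDP, CDP held on each design.

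In the differentiated cells of the marrow, miR-155 was low or absent from the readable range. PDC, the interferon-producing type of DC, read -3.48 and -3.39, from signals of 41.1 and 83.8. Gr1+ monocytes were not well above background on either array. Their signals were 7.42 and 5.66, their values before the floor -6.13 and -6.41, and they stand at the floor. Folds against them are therefore given as lower bounds from the lowest readable signal, and the fitted differences, which end at the floor, are not such bounds. The bounds concern the measured means and leave out the spread between replicates. miR-155 was detected on all other arrays, 14 of 16.

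The splenic DC held the highest levels. CD4-CD8- DC read -0.85 and -0.76, from signals of 306 and 326. CD8+ DC, the cross-presenting type, read -2.16 and -0.86, from 87.9 and 256. CD4+ DC read -2.42 and -1.91, from 144 and 175. The arrays of CD8+ DC, CD4+ DC and MP overlapped one another, while both CD4-CD8- DC arrays lay above all 14 others.

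The order of the population means was CD4-CD8- DC at -0.81 ± 0.06 (SD, n = 2 for each), CD8+ DC at -1.51 ± 0.91, MP at -1.85 ± 0.47, CD4+ DC at -2.17 ± 0.36, MDP at -3.16 ± 0.12, PDC at -3.43 ± 0.06, CDP at -4.13 ± 0.18 and Gr1+ monocytes at the floor. All 8 populations held the same rank on design 1 and on design 2. The 2 replicates of CD8+ DC lay furthest apart. The residual SD of miR-155 in the fit, moderated by limma, was 0.36, against a median of 0.19 over the 175 miRNAs tested. Its spread between replicates, pools and arrays together, was thus larger than that of most tested miRNAs. Design 2 read 0.26 higher than design 1 on average over the populations. That average includes Gr1+ monocytes, whose -0.46 is the gap between the floors of the designs and not a reading.

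**Figure D2:**
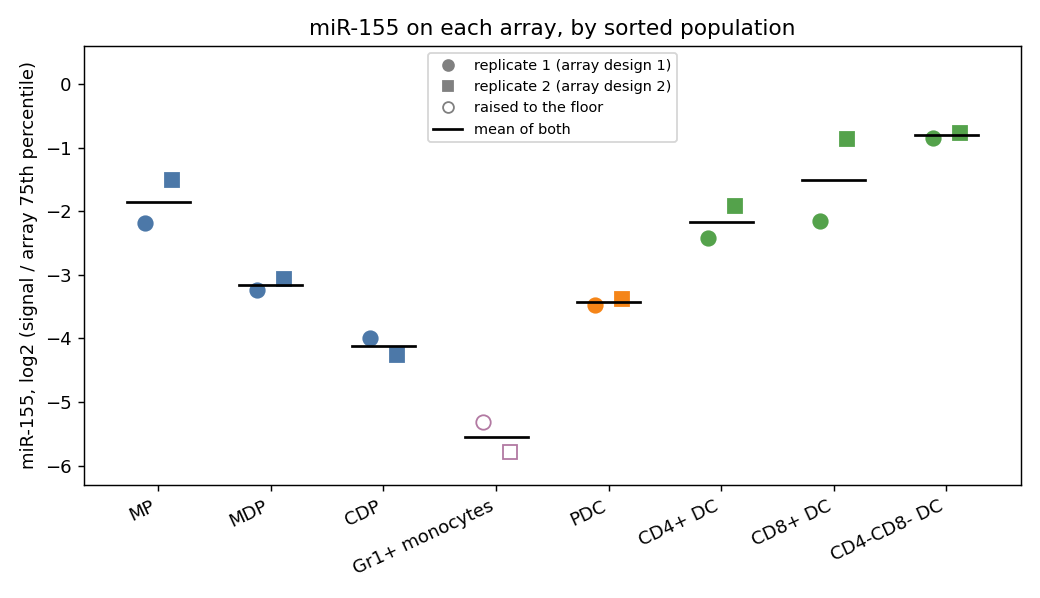
Level of miR-155 on each of the 16 arrays, as log2 of the scaled signal, by population; points are single arrays of design 1 and design 2, short lines are means of 2 arrays, and open points were not detected and stand at the floor. CD4-CD8- DC lie highest at -0.85 and -0.76, and Gr1+ monocytes lie at the floor of their design.

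In a moderated F test (limma, array design as a block, all 16 arrays) the populations differed in miR-155, with F = 36.95, an adjusted p of 4.33e-05 and a range of 4.75 between the highest and the lowest mean. A difference across these populations was common, since 130 of the 175 tested miRNAs, 74.3 percent, passed an adjusted p of 0.05. By p miR-155 ranked 42 of 175. The p-values below come from the same limma fit, with Benjamini-Hochberg adjustment over the 175 miRNAs within each comparison, with 2 arrays per population. Called means an adjusted p under 0.05.

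Along the DC progenitors, miR-155 fell from MP to CDP. The difference was -2.28 ± 0.36 (log2, SE; 95% interval -3.10 to -1.46), a 4.86-fold lower level in CDP, with -1.82 on design 1 and -2.74 on design 2 and an adjusted p of 0.00304. Of all tested miRNAs 21.1 percent were called in this comparison, and miR-155 ranked 10 by p. The median difference of all tested miRNAs was -0.21. It depended on the scaling: with the percentile taken over all 604 miRNAs the median turned to 0.24 and the calls from 3 higher and 34 lower to 32 higher and 7 lower, and with quantile normalization the calls were 10 higher and 13 lower. miR-155 stayed lower in CDP under both, by -1.53 (adjusted p = 0.0438) and -1.92 (adjusted p = 0.0391). With normexp background correction of all spots, run here with an added offset of 50 units, it was not called, at -1.19 (adjusted p = 0.426). Such an offset by itself makes log2 differences between dim signals smaller. With spots dimmer than their local background left out of normexp, and the same offset added, the difference was again -1.19 and was called.

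Neither single step passed the threshold. From MP to MDP the difference was -1.31 ± 0.36 (95% interval -2.13 to -0.49), with -1.06 and -1.56 on the designs and an adjusted p of 0.0519, in a comparison where 10.3 percent of miRNAs were called. This call turned on single arrays: without either CD8+ DC array, which changes the shared error estimate alone, the adjusted p was 0.0331, and without either Gr1+ monocyte array it was 0.0482. From MDP to CDP the difference was -0.97 ± 0.36 (95% interval -1.79 to -0.15), with -0.75 and -1.18 on the designs and an adjusted p of 0.241. In that comparison limma called 0 percent of miRNAs, against 26 at an unadjusted p under 0.05. Both intervals exclude 0 before adjustment, and both designs gave the same sign.

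Gr1+ monocytes, which can arise from MDP, had lower miR-155 than MDP. The fitted difference was -2.39 (95% interval -3.22 to -1.57, adjusted p = 0.000791), and both designs gave a fall, -2.08 and -2.71. Measured against the lowest readable signal it was at least 3.79-fold lower, and 37.7 percent of miRNAs were called in this comparison. With normexp on all spots the difference turned to 0.19 (adjusted p = 0.757); on Gr1+ monocytes replicate 1 that correction gave miR-155 a value of 421 units from a raw mean of 68.3. With spots dimmer than their local background left out of normexp, the difference was -0.75 (adjusted p = 0.0193), smaller than the bound above. That value carries the added offset and the bound does not, so their sizes cannot be compared directly. PDC and CDP, a progenitor of PDC, were not told apart: PDC lay 0.70 ± 0.36 higher (95% interval -0.13 to 1.52; 0.52 and 0.87 on the designs) with an adjusted p of 0.194, where 37.7 percent of miRNAs were called.

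From CDP to the splenic DC miR-155 rose. The mean of the 3 splenic DC lay 2.63 ± 0.29 above CDP (95% interval 1.96 to 3.30), a 6.20-fold higher level, with 2.19 and 3.07 on the designs and an adjusted p of 5.66e-05. It ranked 9 from the top by size of difference among the 175, in a comparison where 56.6 percent of miRNAs were called and the median difference was 0.26. With the percentile over all miRNAs the median became -0.06 and the calls went from 65 higher and 34 lower to 30 higher and 52 lower, while with quantile normalization they were 43 and 41. miR-155 was then 1.92 higher (adjusted p = 0.0023) and 2.30 higher (adjusted p = 0.00127). With normexp on all spots the rise was smaller, at 1.43 (adjusted p = 0.0228).

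PDC had less miR-155 than the splenic DC, by -1.94 ± 0.29 (95% interval -2.61 to -1.27), a 3.83-fold lower level. The designs gave -1.67 and -2.21, the adjusted p was 0.00071, and 42.9 percent of miRNAs were called. Gr1+ monocytes lay lower than the splenic DC by a fitted -4.06 (95% interval -4.73 to -3.39, adjusted p = 8.85e-06), with -3.51 and -4.60 on the designs. Against the lowest readable signal this was at least 12.02-fold, with 41.1 percent of miRNAs called. With normexp on all spots neither was called, at -1.28 (adjusted p = 0.0878) and -0.69 (adjusted p = 0.139), and with the dim spots left out both were, at -1.27 (adjusted p = 6.26e-05) and -1.62 (adjusted p = 7.16e-06). The marrow source of both cell types and the splenic source of the DC cannot be told apart from the cell type here.

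Within the splenic DC the 3 subsets were not separated. CD8+ DC against the mean of the other two gave -0.02 ± 0.31 (95% interval -0.74 to 0.69) and an adjusted p of 1, and the designs disagreed in sign, with -0.52 on design 1 and 0.48 on design 2. In this comparison 33.7 percent of miRNAs were called. CD4+ DC lay below CD4-CD8- DC by -1.36 ± 0.36 (95% interval -2.18 to -0.54; -1.57 and -1.15 on the designs), with an adjusted p of 0.0653 and 4.57 percent of miRNAs called. That was the lowest difference of the 175 tested, and it passed the threshold without either CD8+ DC array (adjusted p = 0.0416). On both slides MP, MDP, CDP and CD8+ DC lay in slide row 1, and Gr1+ monocytes, PDC, CD4+ DC and CD4-CD8- DC in row 2. Row and population therefore cannot be told apart between any population of row 1 and any of row 2, in the pairs below as well. This covers CD8+ DC against the other subsets, Gr1+ monocytes against MDP and PDC against CDP. The same holds in part for the comparisons with the mean of the splenic DC, and for the differentiated against the progenitor populations.

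As a group, the 5 differentiated populations were not told apart from the 3 progenitors. The difference was 0.35 ± 0.19 (95% interval -0.07 to 0.78; 0.30 and 0.40 on the designs), with an adjusted p of 0.129, where 62.9 percent of miRNAs were called and their median was 0.14. The differentiated group holds both the highest level, in CD4-CD8- DC, and the lowest, in Gr1+ monocytes.

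**Figure D3:**
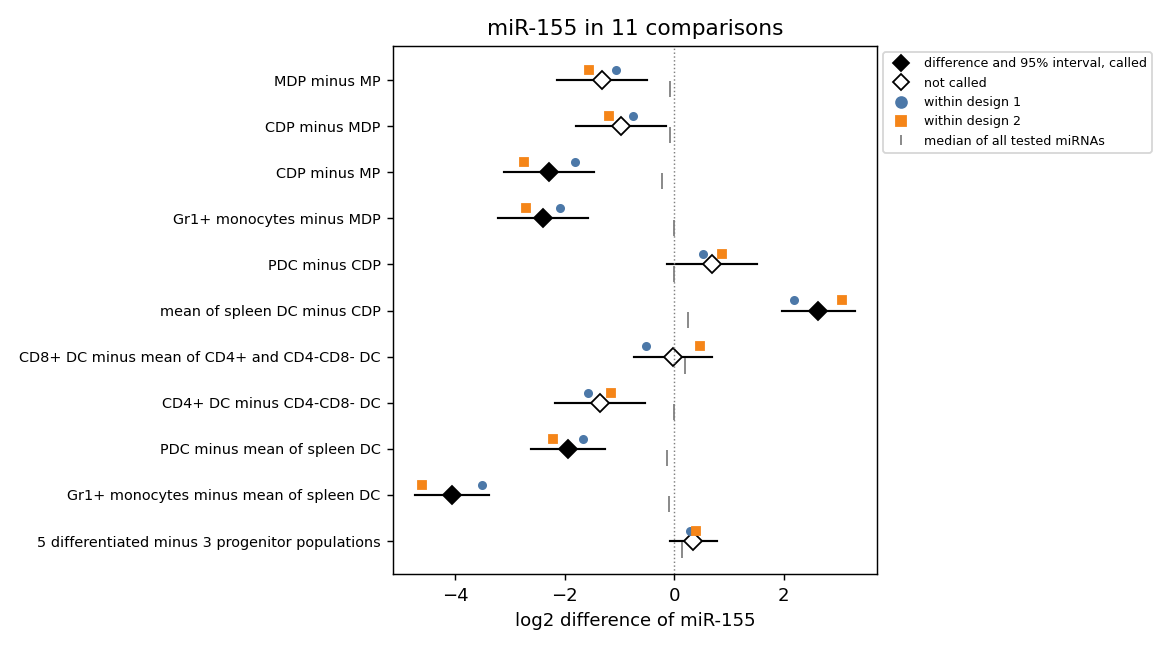
Log2 difference of miR-155 in 11 comparisons, with the 95% interval of the limma fit and the difference on each array design alone. The mean of the splenic DC lies 2.63 above CDP, Gr1+ monocytes lie at a fitted -4.06 against the mean of the splenic DC, and the design values of CD8+ DC against the other splenic DC fall on opposite sides of 0.

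To place neighbours in the order, all 28 pairs of populations were compared. miR-155 was called in 19 and not in 9. Under both other scalings as well as this one 14 pairs were called. Of the 7 pairs of neighbours in the order, CD4+ DC against MDP and CDP against Gr1+ monocytes were called, the first in 8 and the second in 22 of 27 settings, this one included. The SE of each pair was 0.36.

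CD4-CD8- DC, at the top of the order, were called higher than each marrow population, with the margin over MP the least secure. Against MP the difference was 1.04 (adjusted p = 0.0463, 44 percent of miRNAs called), and the call held in 10 of 27 settings, this one included and normexp on all spots left aside. Against MDP it was 2.35 (adjusted p = 0.000578, 47.4 percent called). Against CDP it was 3.32 (adjusted p = 7.5e-05, 43.4 percent called). Both arrays lay above both arrays of each of these populations. Against the PDC the fit gave 2.62 (adjusted p = 0.000638, 31.4 percent called). Against Gr1+ monocytes the level was at least 19.4-fold higher (fitted 4.75, adjusted p = 2.06e-05, 29.1 percent called). CD8+ DC lay 0.70 below, which was not called (adjusted p = 0.19, 29.1 percent called; 95% interval -0.12 to 1.53). With the percentile over all miRNAs this pair was called, at 1.43 (adjusted p = 0.0454).

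CD8+ DC were not told apart from MP or from CD4+ DC. They lay 0.34 above MP (adjusted p = 0.457, 61.7 percent called) and 0.66 above CD4+ DC (adjusted p = 0.199, 30.9 percent called), and both signs turned, to -0.13 and -0.11, with the percentile over all miRNAs. Above MDP the difference was 1.65 (adjusted p = 0.00334, 65.7 percent called), which was 0.91 with an adjusted p of 0.147 under that scaling. Above CDP it was 2.62 (adjusted p = 0.000236, 69.1 percent called). Above PDC it was 1.92 (adjusted p = 0.00249, 53.1 percent called) and 1.23 with an adjusted p of 0.0564 under that scaling. The level was at least 11.9-fold that of Gr1+ monocytes (fitted 4.04, adjusted p = 4.2e-05, 48 percent called).

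CD4+ DC stood near MP and above the other marrow cells. They lay -0.32 from MP (adjusted p = 0.534, 45.1 percent called; 95% interval -1.14 to 0.50). Above MDP the difference was 0.99 (adjusted p = 0.0439, 54.3 percent called), with adjusted p of 0.0971 and 0.0817 under the other scalings. Above CDP it was 1.96 (adjusted p = 0.00141, 50.3 percent called). Both CD4+ DC arrays lay above both arrays of MDP, CDP and PDC. The step to PDC, 1.26 (adjusted p = 0.0215, 38.9 percent called), had adjusted p of 0.053 and 0.0582 under the other scalings. Over Gr1+ monocytes the level was at least 7.54-fold higher (fitted 3.39, adjusted p = 0.000119, 38.9 percent called).

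Among the marrow populations, MP exceeded PDC, and all exceeded the monocytes, CDP by the least secure margin. PDC lay -1.58 from MP (adjusted p = 0.00585, 45.1 percent called) and -0.27 from MDP (adjusted p = 0.605, 45.1 percent called; 95% interval -1.10 to 0.55). Gr1+ monocytes were at least 9.42-fold lower than MP (fitted -3.71, adjusted p = 3.99e-05, 35.4 percent called). They were at least 1.94-fold lower than CDP by the measured means (fitted -1.43, 95% interval -2.25 to -0.60, adjusted p = 0.012, 40 percent called). That call held in 22 of 27 settings, normexp on all spots left aside. Among the settings that lost it, the difference was -1.13 without CDP replicate 1 and -1.01 without Gr1+ monocytes replicate 2. With a floor 1 unit higher it was -0.43 (adjusted p = 0.562). The call was also lost under normexp with the dim spots left out, where the means were -2.63 in CDP and -2.84 in Gr1+ monocytes. PDC were at least 3.14-fold above them (fitted 2.12, adjusted p = 0.00141, 41.1 percent called).

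**Figure D4:**
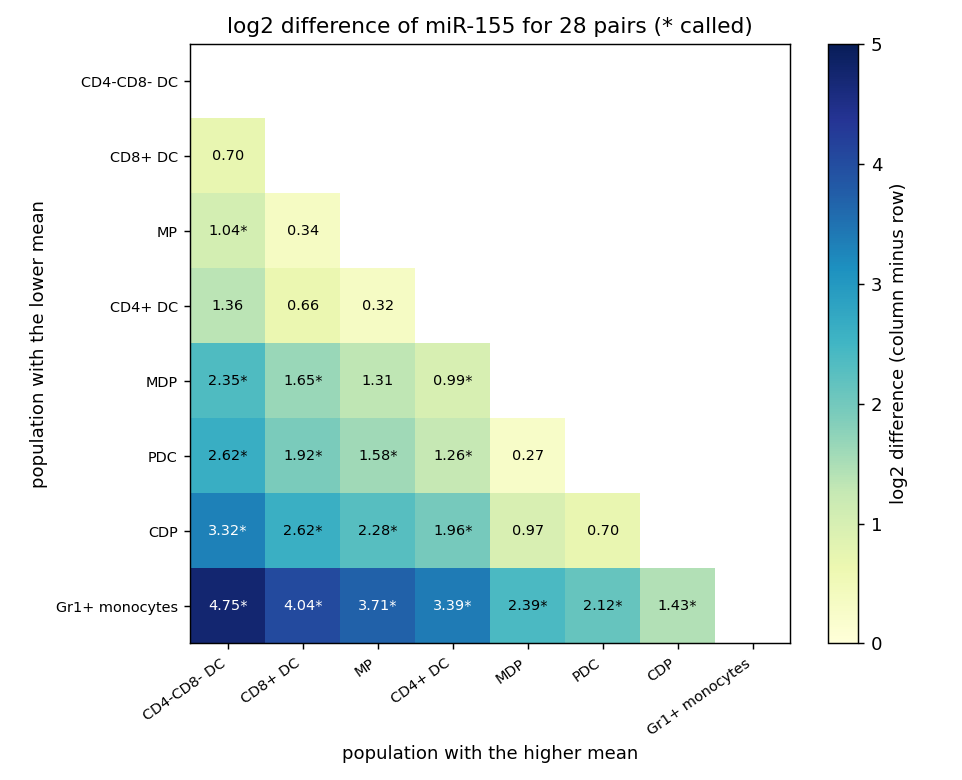
Log2 difference of miR-155 for the 28 pairs of populations, column minus row, in the order of the means, with an asterisk where the adjusted p was under 0.05. The 19 called pairs include every pair with Gr1+ monocytes, and the pairs among the 3 splenic DC are not called.

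The sorted populations were set against miRNAs that mark other cells. The part of these markers in the miR-155 differences was not tested. miR-150, abundant in mature lymphocytes, was not detected in MDP and lay at a mean of -0.73 in CD4-CD8- DC, -0.83 in PDC, -1.13 in CD8+ DC and -1.96 in CD4+ DC, against -4.08 in MP, -4.81 in Gr1+ monocytes and -4.88 in CDP. PDC thus read high for miR-150 and low for miR-155, while the splenic DC read above CDP and Gr1+ monocytes for both. Of 3 erythroid miRNAs, miR-144 was detected on 0 arrays and miR-486 on 3, both CD8+ DC arrays and MP replicate 1. The third, miR-451, read 0.31 and -0.96 in CD8+ DC, -0.29 and -1.83 in CD4+ DC and -2.25 and -2.65 in CD4-CD8- DC. In MP miR-451 read -0.998 and -5.14, and in PDC -2.95 and -1.54. Its means were lower in MDP, CDP and Gr1+ monocytes, at -5.23, -4.95 and -4.86.

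Of the stromal, endothelial and epithelial markers, miR-143, miR-145, miR-199a-3p and miR-141 were detected on 0 arrays, while miR-126-3p, which endothelial cells carry as well as blood progenitors, was detected on 8. miR-200b was detected on 6 arrays, all of splenic DC, and miR-200c on 5, the CD4+ and CD4-CD8- DC and PDC replicate 2, and none of those values was above -4.50. miR-126-3p and miR-196b, as markers of progenitors, were each detected on the 8 arrays of MP, MDP, CDP and PDC, and were not detected in Gr1+ monocytes or splenic DC. miR-223, which marks the myeloid lineage, was detected on all 16 arrays and read 4.54 and 4.30 in Gr1+ monocytes, where miR-155 was not detected.

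Other miRNAs known from innate immune activation were set beside miR-155. Of a list of 13, 8 were tested: miR-146a, which dampens signalling through Traf6 and Irak1, miR-146b, miR-21, miR-212, miR-125b-5p, let-7e, miR-181c and miR-223. From CDP to the splenic DC 3 rose, 1 fell and 4 were not called, against 37.1 percent of all tested miRNAs higher and 19.4 percent lower, and the list's median difference was 0.44 beside 0.26 over all. With the percentile over all miRNAs the list gave 3 higher and 3 lower. miR-146a rose by 5.55 ± 0.25 (adjusted p = 4.56e-07), miR-21 by 1.88 ± 0.31 (adjusted p = 0.000667) and miR-146b by 1.26 ± 0.14 (adjusted p = 4.33e-05), while miR-181c fell by 0.81 ± 0.15 (adjusted p = 0.00143).

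In PDC against the splenic DC, 1 of the 8 was higher and 6 were lower, against 18.3 percent higher and 24.6 percent lower of all tested, with a median of -1.02 beside -0.13. With the percentile over all miRNAs 4 were lower, and the calls over all turned from 32 higher and 43 lower to 32 and 22. miR-223 was lower by -2.40 ± 0.16 (adjusted p = 4.25e-06) and miR-146a by -1.78 ± 0.25 (adjusted p = 0.000466), and miR-181c was higher by 2.24 ± 0.15 (adjusted p = 4.25e-06).

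miR-146a shared the high level in splenic DC and differed in the marrow. It read 1.15 on both CD4+ DC arrays, 0.32 and 0.38 in CD8+ DC and 0.69 and 0.56 in CD4-CD8- DC. In PDC it read -0.55 and -1.59, above every progenitor and monocyte array, which lay between -4.96 and -3.92. In MP, whose miR-155 overlapped that of CD4+ DC, miR-146a read -4.23 and -3.92.

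The same list was counted in the progenitors and monocytes. From MP to CDP 0 of the 8 were higher, 4 lower and 4 not called, against 1.71 percent higher and 19.4 percent lower over all tested miRNAs, with a median of -0.97 beside -0.21. With the percentile over all miRNAs 1 was higher and 2 were lower. miR-146b fell by 1.39 ± 0.17 (adjusted p = 0.000835), and miR-146a had a difference of -0.77 ± 0.31 (adjusted p = 0.12). The lower members other than miR-146b are all shared with the stem and early progenitor list below. From MDP to Gr1+ monocytes 2 were higher, 2 lower and 4 not called, against 20 percent higher and 17.7 percent lower of all tested. There miR-21 rose by 1.37 ± 0.38 (adjusted p = 0.0197) and miR-223 by 1.15 ± 0.20 (adjusted p = 0.00142), with 0 of the list higher under quantile normalization.

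A list of 16 miRNAs of stem cells and early progenitors had 8 tested members: miR-99a, miR-125b-5p, let-7e, miR-126-3p, miR-130a, miR-196b, miR-181c and miR-10a. miR-125b-5p, let-7e and miR-181c are in the activation list too. From MP to CDP, where miR-155 fell, all 8 tested members fell, with a median of -1.77 beside -0.21 over all and against 1.71 percent higher and 19.4 percent lower of all tested, and 5 and 6 fell under the other scalings. The change was -2.63 ± 0.21 for miR-196b (adjusted p = 0.000174), which lies in a Hox cluster, and -2.73 ± 0.33 for miR-130a (adjusted p = 0.000835). From MDP to Gr1+ monocytes 6 of the 8 fell and 0 rose, the same count under both other scalings, with a median of -1.62 beside 0.00 over all and against 20 percent higher and 17.7 percent lower of all tested. Differences that end at the floor, such as those of miR-126-3p and miR-196b, depend on where the floor is set.

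From CDP to the splenic DC the stem and progenitor miRNAs parted from miR-155. None of the 8 rose, 4 fell and 4 were not called, with a median of -0.68 beside 0.26 and against 37.1 percent higher and 19.4 percent lower of all tested, and 7 and 5 fell under the other scalings, while miR-155 rose. In PDC against the splenic DC 4 were higher, 2 lower and 2 not called, with a median of 0.92 beside -0.13 and against 18.3 percent higher and 24.6 percent lower of all tested. miR-126-3p, known for its level in blood stem cells, lay higher in PDC by 1.90 ± 0.18 (adjusted p = 3.29e-05), in a comparison where miR-155 was lower.

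The miRNAs whose pattern was most like that of miR-155 were found by Pearson's r over the 8 population means, among 172 other miRNAs with a varying value, whose median r was 0.21. The means share arrays, scaling and floor with miR-155, so r is a description. The 10 highest were miR-709 (0.86), miR-34a (0.82), miR-674* (0.76), miR-690 (0.75), let-7d (0.74), let-7a (0.72), miR-451 (0.68), miR-146a (0.68), miR-30a (0.67) and miR-29c (0.67). Of these 10, 6 stayed among the highest 10 with the percentile over all miRNAs and 5 with quantile normalization. miR-674* stood at the floor on every design 1 array, and its F test gave an adjusted p of 0.454.

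miR-709 and miR-34a kept a similar r on each design, 0.86 and 0.82 for miR-709 and 0.83 and 0.81 for miR-34a. Under the other scalings the r of miR-709 was 0.76 and 0.83 and that of miR-34a 0.80 and 0.81. miR-34a, a transcriptional target of p53, read 0.12 and 0.10 in CD4+ DC, 0.36 and -0.15 in CD4-CD8- DC and -1.43 and -1.14 in CD8+ DC. On all marrow arrays it lay between -5.16 and -3.22, and its progenitor means followed the same order as those of miR-155, -3.31 in MP, -4.08 in MDP and -4.84 in CDP. The r of miR-30a differed between the designs, at 0.45 and 0.81.

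The 5 most opposed were miR-669f (-0.79), miR-669a (-0.74), miR-27a (-0.71), miR-338-3p (-0.70) and miR-149 (-0.65). Without Gr1+ monocytes the r of miR-338-3p was 0.10, that of miR-149 -0.20 and that of miR-27a -0.41, while miR-669f and miR-669a stayed at -0.74 and -0.90. miR-27a read 0.12 and 0.06 in Gr1+ monocytes and between -2.53 and -0.59 on all other arrays. The likeness says no more than that the means vary together or in opposition, and a single population can set much of an r.

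The mature strands of 4 of the most alike are shown because they let the seed be set beside UAAUGCU, again from RefSeq with bases 2 to 8 in capitals.
miR-34a-5p: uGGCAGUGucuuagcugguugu
miR-146a-5p: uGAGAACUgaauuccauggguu
let-7a-5p: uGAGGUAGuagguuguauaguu
let-7d-5p: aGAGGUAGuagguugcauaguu
Of the 15 most alike and most opposed, 11 were matched in the table and none had the seed of miR-155. let-7a and let-7d share a seed with each other, and their nearly identical sequences may share signal on the array.

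**Figure D5:**
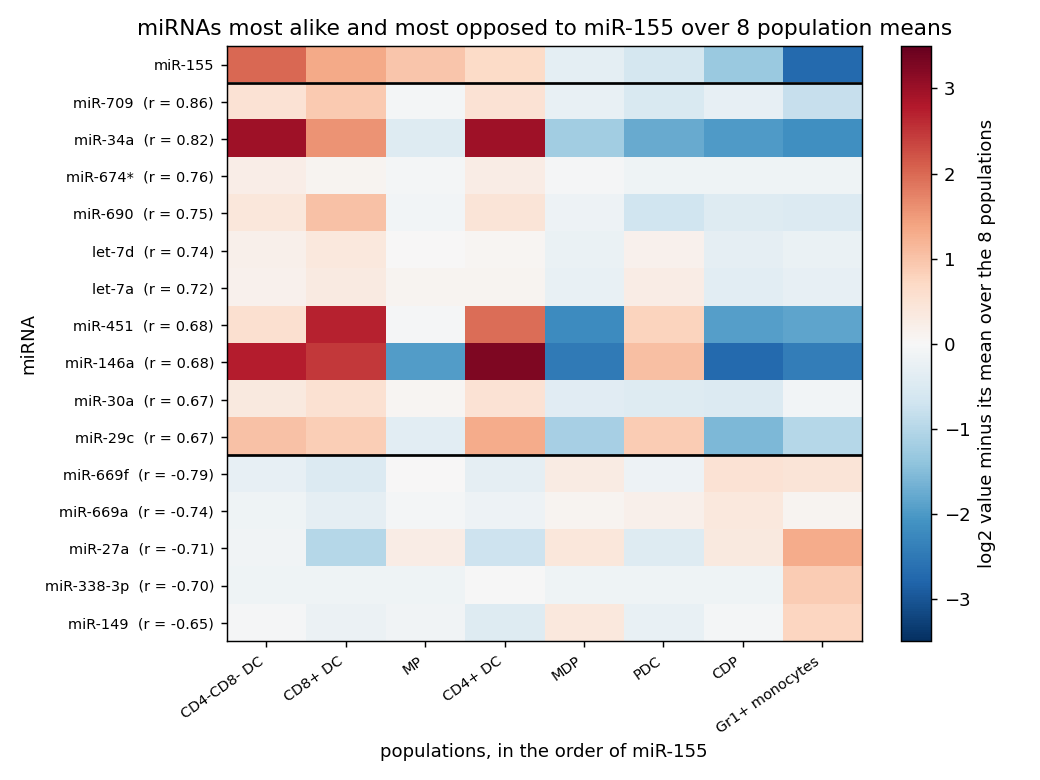
Level of miR-155 and of the 10 most alike and 5 most opposed miRNAs in the 8 populations, in the order of miR-155, as the mean log2 of 2 arrays with each row centred on its own mean. miR-34a, miR-146a and miR-709 are high in the splenic DC as miR-155 is, and miR-27a is highest in Gr1+ monocytes.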

How the data were processed

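RNA of 8 sorted mouse populations had been hybridised with Cy3 to Agilent miRNA arrays, 2 per population. The deposited values are the processed spot intensity of Agilent's scanner software Feature Extraction (per the file headers in version 10.7.3.1 and per the submitters' processing notes in 9.1), background-subtracted by the authors' software on a linear scale and not scaled between arrays. The deposited series tables held the same miR-155 intensity for 320 of 320 spots at 3 digits.

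Outlier spots were dropped, and spots and then probes averaged. The 75th percentile among the 88 miRNAs that every array detected served as the divisor of an array. A floor was set at the median over a design's arrays of the 5th percentile of detected values, and log2 taken. Tested were 175 miRNAs, those that both arrays of some population detected, in limma 3.58.1 (R 4.3.3) with array design as a block and 8.52 total degrees of freedom (residual and prior). The replicate numbers pair the arrays because they mark the design. After population means were removed, arrays with the same number correlated across miRNAs at an r between 0.293 and 0.916 over the 28 population pairs. The floors differ between the designs, and miRNAs at the floor can raise this r by themselves, so it is no test of the pairing. Each replicate is a pool, so p-values measure the spread between pools together with that between arrays. Folds against Gr1+ monocytes use, for each monocyte array, the larger of its own value and the dimmest detected probe's signal.

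miR-155, the lists, the markers and the alternatives were chosen with earlier results of these data known. Named were miR-155, the 10 miRNAs most alike and the 5 most opposed to it by r over the population means, and tested list members with up to 4 examples per comparison. The range of miR-146a, miR-34a and marker values was added after they were seen. The procedure was tested on simulated arrays. The number of arrays limits the precision.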

Additional observations from a re-analysis of the deposited data

How the results depend on the processing

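Normexp background correction on all spots, with its added offset of 50 units, changed the most. The offset by itself makes log2 differences between dim signals smaller. The range over the populations became 1.94 (adjusted p = 0.089), CDP minus MP -1.19 (adjusted p = 0.426), PDC minus splenic DC -1.28 (adjusted p = 0.0878) and Gr1+ monocytes minus splenic DC -0.69 (adjusted p = 0.139). Gr1+ monocytes minus MDP turned to 0.19 (adjusted p = 0.757), CD8+ DC minus the other splenic DC to 0.082, and 1 pair was called. Splenic DC minus CDP kept its call at 1.43 (adjusted p = 0.0228). In Gr1+ monocytes replicate 1, 5 spots lay below their local background, the lowest by -12654 units, and the normexp value of miR-155 there was 421, against a raw mean of 68.3. With such spots left out, an alternative chosen after seeing the data, Gr1+ monocytes were again lowest and 18 pairs were called. The offset was still added, and the sizes stayed smaller than without normexp. The range was 2.14, CDP minus MP -1.19, Gr1+ monocytes minus MDP -0.75, Gr1+ monocytes minus splenic DC -1.62 and splenic DC minus CDP 1.42, all 5 called. Gr1+ monocytes minus CDP was -0.21 (adjusted p = 0.591). There CD4+ minus CD4-CD8- DC was -1.10 (adjusted p = 0.0155), and CD8+ DC minus the others was 0.091. That last difference was also positive with the brightest probe, at 0.05. A floor 1 unit higher gave 0.55 for differentiated minus progenitor populations (adjusted p = 0.0439). Without both Gr1+ monocyte arrays, also chosen after seeing the data, MDP minus MP was -1.31 (adjusted p = 0.0482).

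Leaving out 1 array at a time, the range over the populations ran from 4.33 to 5.16, CDP minus MP from -2.58 to -1.98, Gr1+ monocytes minus MDP from -2.81 to -1.98, splenic DC minus CDP from 2.34 to 2.93, PDC minus splenic DC from -2.13 to -1.74 and Gr1+ monocytes minus splenic DC from -4.47 to -3.64, and these 6 kept their calls. MDP minus MP ran from -1.55 to -1.08, CDP minus MDP from -1.26 to -0.67, PDC minus CDP from 0.40 to 0.99 and CD4+ minus CD4-CD8- DC from -1.50 to -1.22. CD8+ DC minus the others ran from -0.61 to 0.57 and was positive without CD8+ DC replicate 1 (0.57), CD4+ DC replicate 2 (0.05) or CD4-CD8- DC replicate 1 (0.03). Differentiated minus progenitor populations ran from 0.23 to 0.47 and was called without CD8+ DC replicate 1 (0.47, adjusted p = 0.0209). Between 16 and 23 pairs were called. Over 27 settings, normexp on all spots left aside, 12 pairs were called in each, CD4-CD8- DC minus MP in 10, CD4+ DC minus MDP in 8, CD4+ DC minus PDC in 20, Gr1+ monocytes minus CDP in 22, PDC minus Gr1+ monocytes in 25, and CD8+ DC minus MDP and minus PDC in 26 each.

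Without the replicate block 17 pairs were called, every difference had the same size (MDP minus MP -1.31, adjusted p = 0.0784), and no call among the 11 comparisons changed. With no filter on dim miRNAs 604 were tested and 15 pairs called. A test over only miRNAs detected on all arrays was not run, since miR-155 is not among them. The median of the spots, the total gene signal of the files and, chosen after seeing the data, the dimmest probe alone changed no call among the 11 comparisons. Values near the floor are limited by signal over background, and the 17-base probe was at that limit in CDP.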
